A study of Mus musculus with 3 samples.

Results

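Vascular smooth muscle nuclei were a small population in single-nucleus RNA libraries of mouse heart: 99 of 20733 nuclei. The hearts were taken 2 weeks after surgery, and 3 libraries were made, 1 per group. Sham-NS hearts had a sham operation and NS, MI-NS hearts a myocardial infarction and NS, and MI-DAPA hearts an infarction and dapagliflozin, a drug that blocks the kidney sodium-glucose transporter SGLT2. The labels do not expand NS, and the genotype, strain, age, sex, dose and number of mice behind a library are not given in the sources used here. Values given in threes are in the order Sham-NS, MI-NS, MI-DAPA. With 1 library per group no difference was replicated, so there is no test. Intervals (lower to upper bound, in brackets) are 95% intervals that cover the counting of molecules or nuclei only, not the spread between mice or pieces of tissue.

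The nuclei were chosen on their own RNA. A nucleus needed at least 300 detected genes and at most 10% of its unique molecular identifiers (UMIs, each standing for 1 captured RNA molecule) from mitochondrial genes, which left the 20733. Less than 3% of UMIs could come from the cardiomyocyte RNAs Ttn, Ryr2, Myh6 and Mhrt, which left 15758. A smooth muscle nucleus then held at least 2 UMIs of Myh11 and at least 3 over Myh11, Acta2, Tagln, Cnn1 and Lmod1. It held at most 1 UMI over the endothelial genes Pecam1, Cdh5 and Flt1, the fibroblast genes Pdgfra and Dcn, and the leukocyte genes Csf1r and Ptprc. The rule was met by 39 Sham-NS nuclei, 35 MI-NS nuclei and 25 MI-DAPA nuclei.

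Smooth muscle cells wrap arteries and arterioles and set vessel diameter. Calcium entering through voltage-gated channels activates myosin light chain kinase and contraction, while nitric oxide, acting through guanylate cyclase and cGMP, and receptors that raise cAMP relax the cell. Serum response factor with its partner myocardin switches on the contractile genes through a short DNA element, the CArG box, and injured vessels are known to hold cells that lower this programme and make matrix. Pericytes are related mural cells of capillaries with little Myh11.

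Promoter sequence is shown for a marker gene of the rule and for the genes found below to be high in these nuclei whose promoters carry a CArG box. Each promoter was the window from 250 bases before to 50 after the gene start in RefSeq, build GRCm38.p6 (mm10), and both strands were searched. An exact CArG box was found in 3 of the 32 matched promoters of genes at least 4-fold above all other nuclei in every library (41 genes, 9.38% of those matched), against 488 of 27025 promoters of all genes (1.81%). None of the 3 matched marker promoters held an exact box. Acta2 alone of them held CArG-like boxes, with 1 C or G among the inner letters, and 11.3% of all promoters held an exact or a CArG-like box. Among the 32 promoters 4 held either kind (12.5%), close to that share. Capitals mark the boxes, 5' to 3' along the gene's strand, and a match is a description of these letters only.
Acta2 (smooth muscle actin, minus strand, chr19:34255374-34255502, boxes beginning 84 and 34 bases before the start): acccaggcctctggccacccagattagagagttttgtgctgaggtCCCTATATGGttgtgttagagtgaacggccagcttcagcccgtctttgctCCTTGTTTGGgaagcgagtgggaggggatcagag
Dmd (dystrophin, plus strand, chrX:82948727-82948826, box beginning 98 bases before the start): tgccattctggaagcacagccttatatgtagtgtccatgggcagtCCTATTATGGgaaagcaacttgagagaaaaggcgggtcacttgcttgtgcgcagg
Ldb3 (a Z-disc and dense body scaffold, minus strand, chr14:34588682-34588761, box beginning 35 bases before the start): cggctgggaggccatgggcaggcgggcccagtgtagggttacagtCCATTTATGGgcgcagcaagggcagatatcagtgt
Myom1 (myomesin, plus strand, chr17:71019413-71019512, box beginning 99 bases before the start): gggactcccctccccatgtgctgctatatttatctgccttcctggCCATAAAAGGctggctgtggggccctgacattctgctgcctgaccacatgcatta

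The 5 marker genes chose the nuclei, so their levels are a description. Myh11, the smooth muscle myosin heavy chain (chr16:14194535-14291372), ranged from 2 to 17 UMIs per nucleus in Sham-NS with a median of 4. The range was 2 to 13 with a median of 4 for MI-NS and 2 to 15 with a median of 3 for MI-DAPA. Acta2 was detected in 16, 21 and 13 of the nuclei. Tagln, which encodes the actin-binding protein transgelin, was detected in 20, 30 and 12 nuclei. Lmod1, leiomodin, which nucleates actin filaments, was detected in 13, 18 and 8 nuclei, and Cnn1, calponin, in 2, 2 and 0. Most nuclei therefore rested on Myh11 and 1 or more of Acta2, Tagln and Lmod1, and 10, 1 and 5 on Myh11 alone.

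Summed over the nuclei of a library and scaled to counts per 1000000 UMIs (CPM), Myh11 stood at 6766 (5875 to 7753), 3964 (3374 to 4628) and 6215 (5131 to 7460). Tagln stood at 948 (635 to 1361), 2131 (1704 to 2631) and 1297 (831 to 1930). Acta2 stood at 882, 1338 and 1297 and Lmod1 at 458, 644 and 540.4. The rule sets a minimum of these UMIs in nuclei whose depth differs between libraries, so no difference between libraries is read from them. In endothelial nuclei, which should lack these genes, Myh11 stood at 25.4 to 47.9 CPM and Tagln at 4.57 to 56.5. After every nucleus was thinned to 500 UMIs, Tagln was detected in 35.9%, 60% and 36% of smooth muscle nuclei (51.3%, 85.7% and 48% unthinned), against 0.284%, 1.42% and 0.463% of endothelial nuclei. The 25 MI-NS nuclei with under 5 UMIs of 9 fibroblast markers, described below, had 4806 CPM of Myh11 (3965 to 5774).

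**Figure D1:**
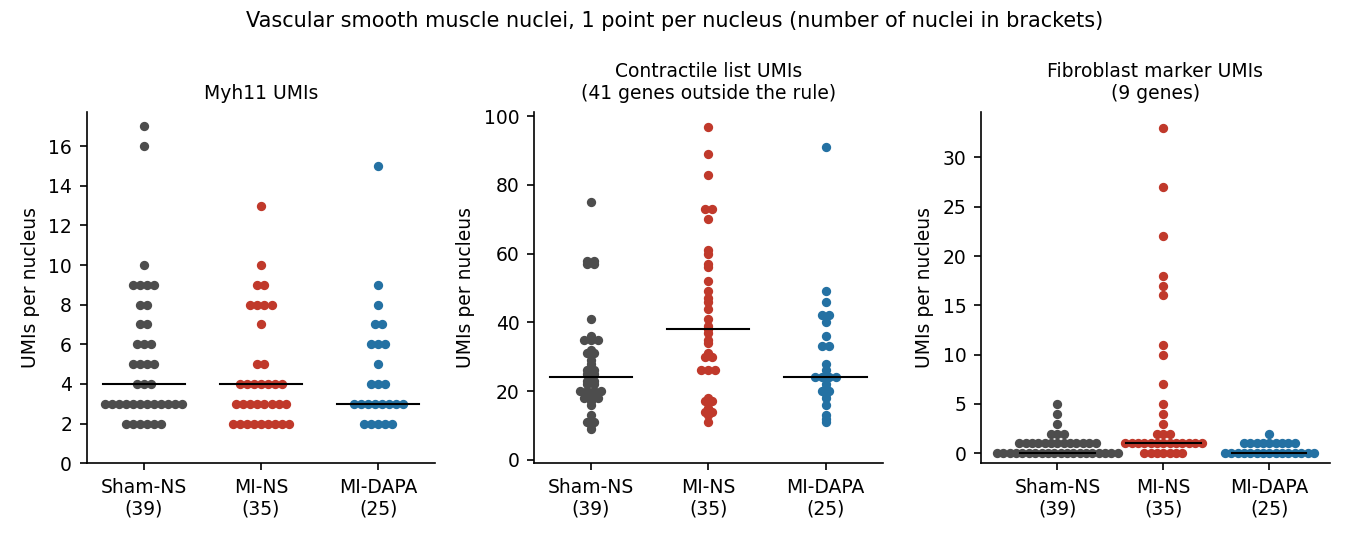
UMIs per nucleus (vertical axes) of Myh11, of the 41 genes of the contractile list and of 9 fibroblast markers, with 1 point per smooth muscle nucleus, the library and its number of nuclei below, and the median as a line. Myh11 overlaps widely between libraries, while 10 of the 35 MI-NS nuclei hold 5 or more fibroblast marker UMIs, against 1 of 39 in Sham-NS and 0 of 25 in MI-DAPA.

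Depth and the RNA of other cells differed between the libraries. The smooth muscle nuclei summed to 30595, 40363 and 18505 UMIs, and their medians were 691, 1019 and 672 UMIs per nucleus. Mitochondrial RNA took 3.66%, 1.09% and 3.10% of them, and 8 cardiomyocyte markers stood at 6308, 1709 and 4701 CPM, against 5632, 2934 and 4677 in the other nuclei. Across libraries 52 barcodes occurred more than once, none of them in a smooth muscle nucleus. Markers of T cells, B cells and adipocytes were at 0 in all 3 libraries, and macrophage markers lay between 54.0 and 294 CPM. Endothelial markers, of which the rule limits Pecam1, Cdh5 and Flt1, stood at 719, 1115 and 703 CPM. In pericyte nuclei they stood at 702, 970 and 740. Pericyte markers were at 2157, 1387 and 1891 CPM, with Higd1b and Vtn at 0 in both infarct libraries, against 6361 to 7752 in pericyte nuclei. The 9 fibroblast markers, of which the rule limits Pdgfra and Dcn, stood at 1013, 4757 and 594 CPM. Lum and Scara5, and Pdgfra under that limit, were at 0 in both infarct libraries. The 6 activated fibroblast markers were detected in 2, 18 and 4 nuclei (98.1, 1709 and 378 CPM), with Cthrc1 at 0 in every library.

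Nuclei lay close to the rule's limits on both sides. With 2 UMIs of Myh11, 20 nuclei were just inside, and 11 with 1 UMI that met the other conditions were just outside, 8 of them in MI-NS. With 3 marker UMIs in all, 13 nuclei were inside, and 17 with 2 were outside. A further 24 nuclei were outside because they held 2 or more UMIs of the 7 excluded genes, and in MI-NS these had a median of 2434 UMIs. The cardiomyocyte limit kept out 6 more, 5 of them in MI-DAPA, and the gene and mitochondrial filters 13. No doublet caller was run, and the excluded genes are the only guard within the rule against mixed droplets.

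Many genes that the rule did not use were also high in these nuclei, which is a description, since the nuclei were selected on the same RNA. Of 678 genes with enough UMIs to rank, 108 were at least 2-fold and 41 at least 4-fold above all other nuclei past the filters in each of the 3 libraries. Olfr78 (chr7:102738511-102759471), an olfactory-type receptor known from vessels, led them. It stood at 2811, 1957 and 3080.2 CPM, against 19.7, 52.4 and 28.2 in the other nuclei. After thinning, an Olfr78 UMI was seen in 69.2%, 51.4% and 68% of smooth muscle nuclei (74.4%, 60% and 72% unthinned), and in 1.13%, 1.77% and 0% of endothelial nuclei, whose median depths were 764, 934.5 and 727 UMIs. A second receptor of that family, Olfr558, stood at 98.1, 248 and 703 CPM.

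Structural genes of muscle came next. Myom1, myomesin, best known from the M-band of striated muscle, stood at 4543 (3819 to 5364), 4212 (3602 to 4895) and 4864 (3911 to 5978) CPM, between 25.5-fold and 31.3-fold above the other nuclei. Dmd, dystrophin (chrX:82948870-85206141), which links actin to the membrane, stood at 3726, 2032 and 4377. Flna (chrX:74223461-74249820), the actin crosslinker filamin A, was the most abundant of these genes at 8171, 8770.4 and 8808 CPM and had a UMI in 97 of the 99 nuclei. Both Myom1 and Dmd are also cardiomyocyte genes. In endothelial nuclei of the same libraries Myom1 was at 130 to 192 and Dmd at 107 to 314 CPM. Cardiomyocyte markers stood at 5162, 2451 and 4335 CPM in those endothelial nuclei, against the 6308, 1709 and 4701 in smooth muscle nuclei. The part of cardiomyocyte RNA in the levels of Myom1 and Dmd was not tested.

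The remaining leaders were genes of excitation, relaxation and the contractile apparatus. Mylk, the myosin light chain kinase, stood at 2092, 1511 and 1729 CPM, and Tpm2, a tropomyosin, at 882, 669 and 324. Cacna1h, a T-type calcium channel, stood at 360, 173 and 216, and Kcnt1, a sodium-activated potassium channel, at 752, 74.3 and 378. Carmn, a noncoding RNA known from smooth muscle, stood at 425, 496 and 378, and Rbpms2, an RNA-binding protein of smooth muscle, at 719, 347 and 270.2. Grip2, Itga10, Rasl12 and Col18a1 complete the leading 15, with lowest within-library ratios between 7.76 and 25.9. Each of these genes stood above all other nuclei in every library. Some of the levels rest on few UMIs, such as 3 of Kcnt1 in MI-NS, and Kcnt1 and Olfr558 differed several-fold between libraries.

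**Figure D2:**
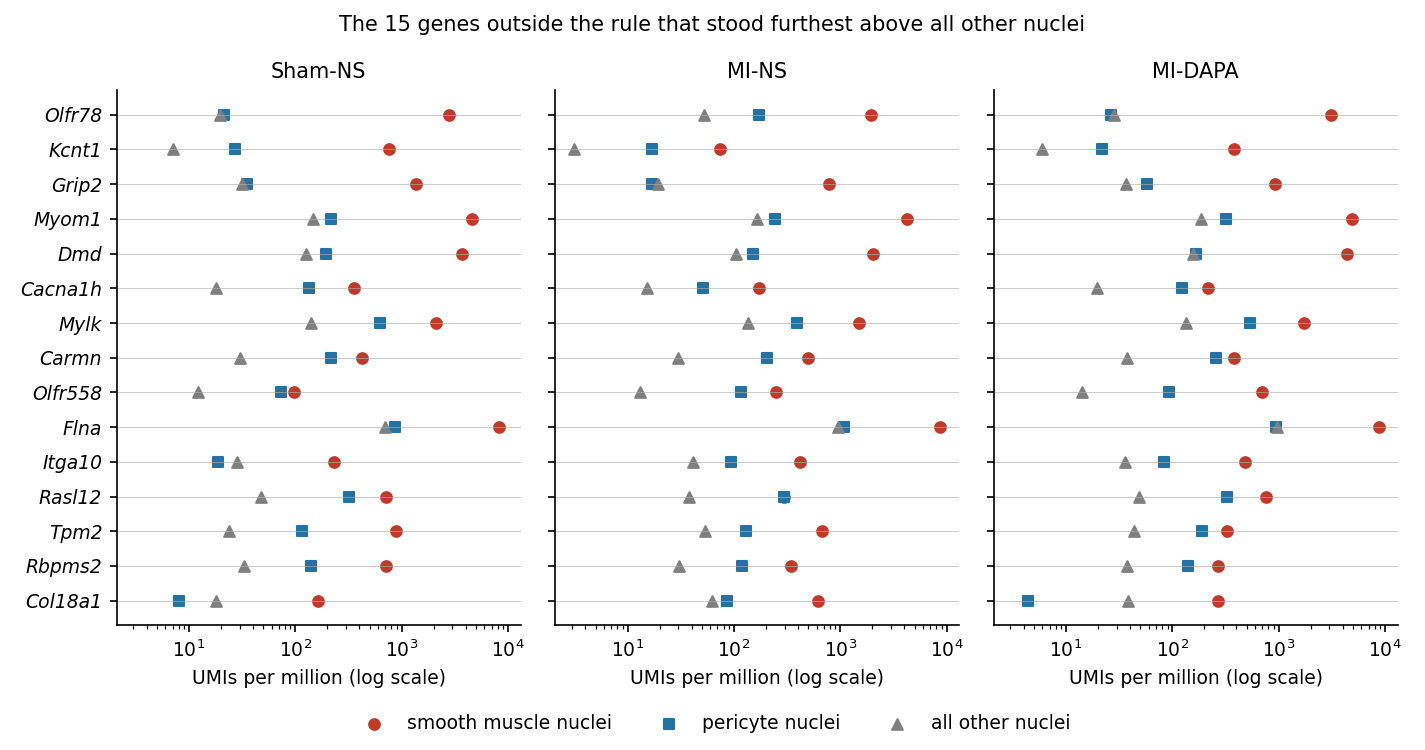
CPM (horizontal axes, log scale) of the 15 genes outside the rule ranked first by their lowest within-library ratio to all other nuclei, in smooth muscle nuclei (circles), pericyte nuclei (squares) and all other nuclei (triangles) of each library. Olfr78, Grip2, Myom1, Dmd and Flna stand far above both comparison classes in all 3 libraries, whereas Rasl12 in MI-NS (297 against 296) and Carmn in MI-DAPA (378 against 255) lie close to pericytes.

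Set against pericyte nuclei (483, 254 and 297 in the 3 libraries), 61 of the 678 genes were at least 2-fold higher and 6 at least 2-fold lower in smooth muscle nuclei of every library. The separation was widest for Grip2, Myom1, Dmd, Lama5, Olfr78, Enah, Sorbs2 and Flna, each at least 8.07-fold higher in every library. Lama5, a laminin chain of basement membrane, stood at 948, 941 and 648 CPM against 72.6, 68.7 and 48.4 in pericytes. Pdgfrb, the receptor through which mural cells are recruited, stood at 719, 619 and 973 against 2719, 2227 and 2479.6, but it is 1 of the 6 genes that chose the pericyte nuclei, so this is a description only. Ltbp4, Dock6, Tcf4 and Abca8a were among the others at least 2-fold lower. Kcnj8 and Abcc9, which form the pericyte potassium channel, and Rgs5 had between 0 and 6 UMIs per library.

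Within the population, contractile RNA was lower where pericyte RNA was present. The contractile list has 41 genes, none of them in the rule. The 35 nuclei without a UMI of the 8 pericyte markers held it at 47421 CPM (45048 to 49887), the 29 with 1 UMI at 34777 (32528 to 37140) and the 35 with 2 or more at 28189 (26389 to 30079). The order was the same within each library, from 46183 over 34720 to 30005 in Sham-NS, 45760 over 35312 to 23184 in MI-NS, and 54565 over 33827 to 32848 for MI-DAPA. The intervals of the last 2 classes overlap in Sham-NS and in MI-DAPA. The 5 markers of the rule went from 11348 to 5842 CPM over all libraries, but they chose the nuclei, so this is a description only. The part of mixed droplets in this order was not tested.

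The shares of smooth muscle nuclei among all nuclei past the filters lay within each other's counting intervals. They were 0.470% (0.334 to 0.642, Clopper-Pearson), 0.495% (0.345 to 0.688) and 0.465% (0.301 to 0.686) of nuclei. The ratio of MI-NS to Sham-NS was 1.05 (0.648 to 1.71) and that of MI-DAPA to MI-NS 0.939 (0.539 to 1.61), so a difference within these bounds was not detectable at this number of nuclei. This depended on the nucleus filter. With at least 500 genes and at most 5% mitochondrial UMIs, the shares were 0.318% (14 of 4400), 0.568% (26 of 4581) and 0.192% (6 of 3122). The ratio of MI-NS to Sham-NS was then 1.78 (0.898 to 3.70) and that of MI-DAPA to MI-NS 0.339 (0.114 to 0.841), an interval below 1. The limit of 500 genes lay above the median of smooth muscle nuclei in Sham-NS (475) and MI-DAPA (460) and below that in MI-NS (639). The part of depth in these ratios was not tested. Of nuclei also past the cardiomyocyte limit the shares were 0.624%, 0.597% and 0.684%. Fewer smooth muscle cells and less Myh11 RNA per nucleus cannot be told apart here, since a nucleus counts only with 2 or more Myh11 UMIs.

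The infarct library with NS was compared with sham to see how these nuclei differed after infarction. Among 495 genes with at least 20 UMIs over both libraries' smooth muscle nuclei, 75 were at least 2-fold higher in MI-NS (15.2%) and 79 at least 2-fold lower (16.0%), and the median log2 ratio was -0.11. At any size of difference 226 of the 495 were higher and 269 lower, the background for the counts within lists below. Differences are given as log2 ratios of CPM, each followed by its interval where printed, and 0.5 UMI was first added to every gene's sum. Matrix genes were the highest in MI-NS, genes of calcium transport and relaxation were lower, and the contractile genes summed over all nuclei were near the level in Sham-NS.

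Of the 41 genes of the contractile list, 23 were measurable, 11 higher and 12 lower, with 4 at least 2-fold higher and 0 at least 2-fold lower, and a median log2 ratio of -0.11, that of all genes. Summed, the list stood at 35757 CPM in Sham-NS and 36395 in MI-NS, a log2 ratio of 0.03 (-0.09 to 0.14). Smtn, smoothelin, an actin-binding protein of contractile smooth muscle, had 16 UMIs in Sham-NS and 72 in MI-NS, a log2 ratio of 1.74 (0.97 to 2.65), with -0.09 in pericytes and 0.46 in endothelial nuclei. Myl6, an essential myosin light chain, had 23 and 73 UMIs (1.25, 0.57 to 2.01), and Vcl, vinculin, 10 and 32 (1.23, 0.22 to 2.47). Both were higher in pericyte, fibroblast and endothelial nuclei too, Myl6 at 1.08, 0.82 and 0.57 and Vcl at 0.42, 1.09 and 0.46. Mylk (-0.47), Tpm1 (0.01) and Flna (0.10) differed less than 2-fold. Dmd was lower (-0.87, -1.30 to -0.45). So single contractile genes differed in both directions while their sum over all nuclei did not differ beyond counting error. The sum was higher in MI-NS among nuclei with under 5 fibroblast marker UMIs, described below. It stood there at 44437 CPM (41794 to 47203), against 36364 (34221 to 38605) in Sham-NS.

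Among 32 regulators of the programme 4 were measurable, 3 of them lower. Tbx2 (chr11:85832551-85841948), a T-box transcription factor, had 44 UMIs in 25 nuclei of Sham-NS and 14 UMIs in 10 nuclei of MI-NS, a log2 ratio of -2.02 (-3.03 to -1.16), with -0.11 in pericytes. Ebf1 (-0.76) and Zfhx3 (-0.59) had intervals that spanned 0. Myocd, myocardin itself, had 2, 5 and 1 UMIs, too few for a comparison.

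Genes of calcium transport were lower in MI-NS. Of 35 listed, 8 were measurable, 7 lower and 1 higher, with 4 at least 2-fold lower, a median log2 ratio of -0.90 and a summed ratio of -0.90 (-1.18 to -0.62). The sum, but not the median, includes Ryr2 and Pln, which are also among the cardiomyocyte markers and were not measurable. Atp2a2 and Cacna1c are among the genes of the median, and the part of cardiomyocyte RNA in it was not tested. Atp2b4 (chr1:133699457-133801041), the plasma membrane calcium pump PMCA4, had 26 UMIs in 14 nuclei of Sham-NS and 5 UMIs in 3 nuclei of MI-NS, a log2 ratio of -2.67 (-4.52 to -1.37). The same gene stood at 0.10 in pericytes and -0.13 in endothelial nuclei, but at -1.22 in fibroblast nuclei and -0.62 in all other nuclei. Ano1 (chr7:144588549-144751974), a calcium-activated chloride channel that depolarises smooth muscle, had 24 and 11 UMIs (-1.49, -2.70 to -0.44). Cacna1c, the pore of the L-type calcium channel, had 28 and 14 (-1.37, -2.44 to -0.43), with -0.95 in pericytes. Cacna2d1, an auxiliary calcium channel subunit, was the 1 member that was higher, at 0.56 (-0.63 to 1.94).

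Relaxation genes were lower as well. All 4 measurable genes of 36 listed were lower, 2 at least 2-fold, with a median log2 ratio of -1.08 and a summed ratio of -0.94 (-1.30 to -0.59). Adcy6, an adenylate cyclase, had 56 UMIs in Sham-NS and 24 in MI-NS (-1.61, -2.38 to -0.91), with -0.75 in pericytes. Gucy1a1 (chr3:82092427-82145789) and Gucy1b1, the subunits of the nitric oxide receptor guanylate cyclase, had log2 ratios of -1.28 (-2.67 to -0.07) and -0.87 (-1.95 to 0.14), against -0.24 and -0.35 in pericytes. Mrvi1, a substrate of the cGMP kinase on the calcium store, was at -0.87 (-2.22 to 0.39), and at -1.13 in pericytes. A further subunit, Gucy1a2, had 8, 0 and 6 UMIs.

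Cardiomyocyte marker RNA and mitochondrial RNA in the smooth muscle nuclei were lower in MI-NS too, and their part in these 2 lists was not tested. All 10 measurable mitochondrial genes were at least 2-fold lower, with a median log2 ratio of -1.71. In pericytes, which had 5884 and 2768 CPM of the cardiomyocyte markers in Sham-NS and MI-NS, Atp2b4 and Tbx2 stood near 0 (0.10 and -0.11), Cacna1c at -0.95 and Adcy6 at -0.75.

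Vasoconstrictor signalling and vessel wall genes had few measurable members. Of 38 genes of vasoconstrictor receptors and their G protein partners 4 were measurable, 1 higher and 3 lower (median -0.94). Rgs4, a brake on G protein signalling, had 20 and 8 UMIs (-1.67, -3.11 to -0.48), and Plce1, a phospholipase C, 14 and 6 (-1.56, -3.29 to -0.15). Plcb4, another phospholipase C, was higher with 9 and 33 UMIs (1.42, 0.38 to 2.72), and was lower in pericytes (-1.12) and endothelial nuclei (-1.27). All 4 measurable genes of the Notch and vessel wall list were lower (median -0.69), among them Notch3, the mural Notch receptor (-0.97, -1.88 to -0.12), and Nr2f2, a transcription factor of veins (-1.65, -3.38 to -0.27). Of the 20 Notch3 UMIs in MI-NS, 8 came from 1 nucleus. The receptors Ednra and Agtr1a had at most 5 UMIs in any library.

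**Figure D3:**
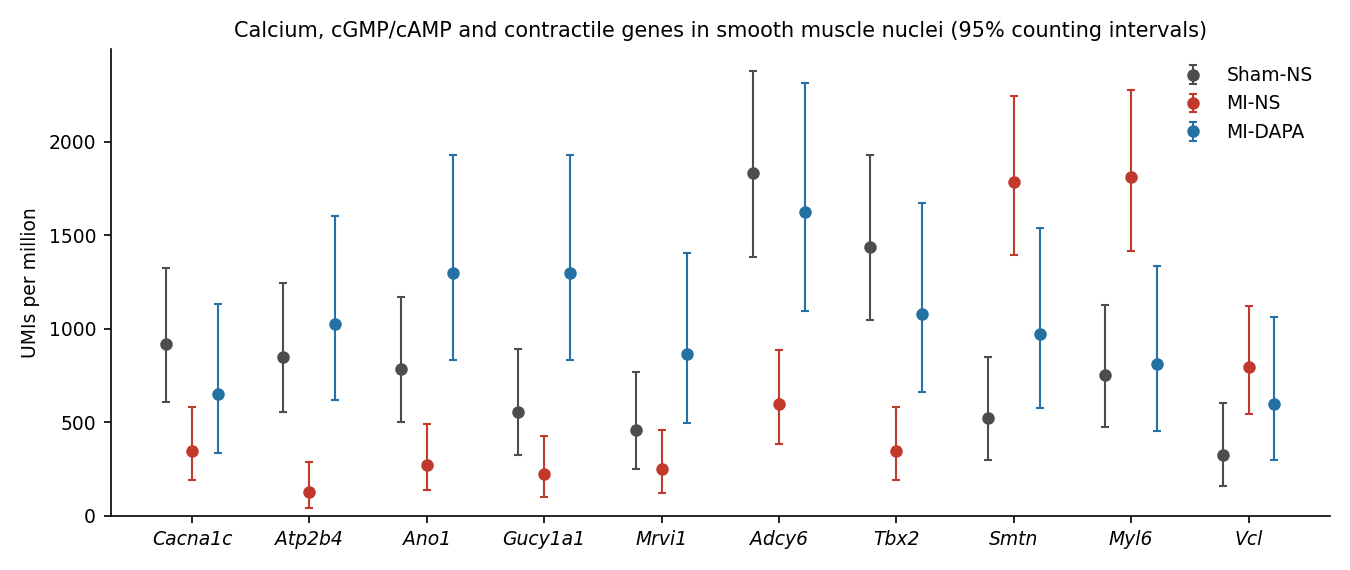
CPM (vertical axis) of 10 named genes summed over the smooth muscle nuclei of each library, with 95% counting intervals as bars. Cacna1c, Atp2b4, Ano1, Gucy1a1, Mrvi1, Adcy6 and Tbx2 are lowest in MI-NS, and Smtn, Myl6 and Vcl are highest there.

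Matrix genes gave the largest differences. Of 56 listed, 19 were measurable, 16 higher and 3 lower, with 14 at least 2-fold higher, a median log2 ratio of 2.41 (2.34 with genes at 0 UMIs in Sham-NS set to their bound), and a sum that went from 7321 CPM in Sham-NS to 23190 in MI-NS. Col3a1 (chr1:45311538-45349706) and Col1a1 (chr11:94936224-94953042), chains of the fibrillar collagens, had 0 UMIs in Sham-NS and 72 and 71 in MI-NS, at least 18.2-fold and 17.9-fold higher against a floor of 3 UMIs per library. Postn, periostin, had 0 and 41 UMIs (at least 10.4-fold higher), and Eln, elastin, which smooth muscle lays down in arterial walls, 7 and 80 (3.02, 2.01 to 4.47). Lamb2, a laminin chain, was lower with 46 and 20 UMIs (-1.58, -2.44 to -0.82).

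Secreted and modulated-state genes followed. Of 38 genes known from modulated smooth muscle, a list that also holds Myl6, 8 were measurable, 6 higher and 2 lower, 5 of the 6 past 2-fold, and the median log2 ratio was 1.31. Fn1, fibronectin, had 1 UMI in Sham-NS and 75 in MI-NS (5.25, 3.31 to 11.15). Thbs1, thrombospondin 1, had 0 and 40 (at least 10.1-fold higher), and Bgn, biglycan, 0 and 29 (at least 7.33-fold higher). Ccn2, a matricellular target of TGF-beta, had 7 and 46 UMIs (2.23, 1.16 to 3.71). Its log2 ratio was 1.45 without the nuclei rich in fibroblast markers described next, and 0.64 on 17 UMIs in all among nuclei without any UMI of the 7 excluded genes. Single nuclei of MI-NS held 32 of its 80 Eln UMIs, 21 of 75 for Fn1 and 19 of 40 for Thbs1. In the same contrast Col3a1 had log2 ratios of 2.59 in fibroblast, 2.87 in pericyte and 3.98 in endothelial nuclei, although Col3a1 is among the genes that chose the fibroblast nuclei.

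Fibroblast marker RNA moved with the matrix genes. In MI-NS, 10 of 35 smooth muscle nuclei held 5 or more UMIs of the 9 fibroblast markers, which include Col1a1 and Col1a2. These 10 had a median of 1553.5 UMIs, 35388 CPM of matrix genes (32588 to 38365) and 24934 of contractile genes. The other 25 had a median of 841 UMIs, 14630 CPM of matrix genes (13131 to 16253) and 44437 of contractile genes (41794 to 47203). Part of this was fixed by the split, since markers that made it are matrix genes, and so was the count of 66 of the 71 Col1a1 UMIs in the 10 nuclei. The 53 matrix genes that are not among the markers stood at 25895 CPM (23508 to 28459) in the 10 and 13744 (12293 to 15320) in the 25, and 61 of the 72 Col3a1 UMIs were in the 10. Whether they are mixed droplets was not tested.

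Without the nuclei of 5 or more fibroblast marker UMIs, a limit chosen after the data were seen, the matrix list was higher in MI-NS by less, at 14630 CPM against 6704 in Sham-NS (5803 to 7706) and with a median log2 ratio of 1.43. The list of modulated smooth muscle then had a median of -0.084, on the other side of 0. Col3a1 kept 11 UMIs in 7 nuclei, Postn 15 in 5 and Fn1 24 in 11, against 0, 0 and 1 in Sham-NS. Bgn kept 16 UMIs against 0 and Eln a log2 ratio of 2.34, while Col1a1 was left with 5 UMIs and Col1a2 with a log2 ratio of 1.11. Smtn (2.04), Tbx2 (-1.85), Atp2b4 (-2.24), Adcy6 (-1.37) and Gucy1a1 (-2.01, -4.60 to -0.40, on 3 MI-NS UMIs) kept their direction and a difference of more than 2-fold, and Ano1 (-0.91, -2.18 to 0.17) and Cacna1c (-0.94, -2.14 to 0.08) came to just under it with intervals that now spanned 0. Intervals also came to span 0 for Vcl (1.13, -0.03 to 2.44), Plce1 (-1.37, -3.55 to 0.18), Notch3 (-0.44, -1.41 to 0.46) and Ifi27 (1.39, -0.35 to 3.64).

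**Figure D4:**
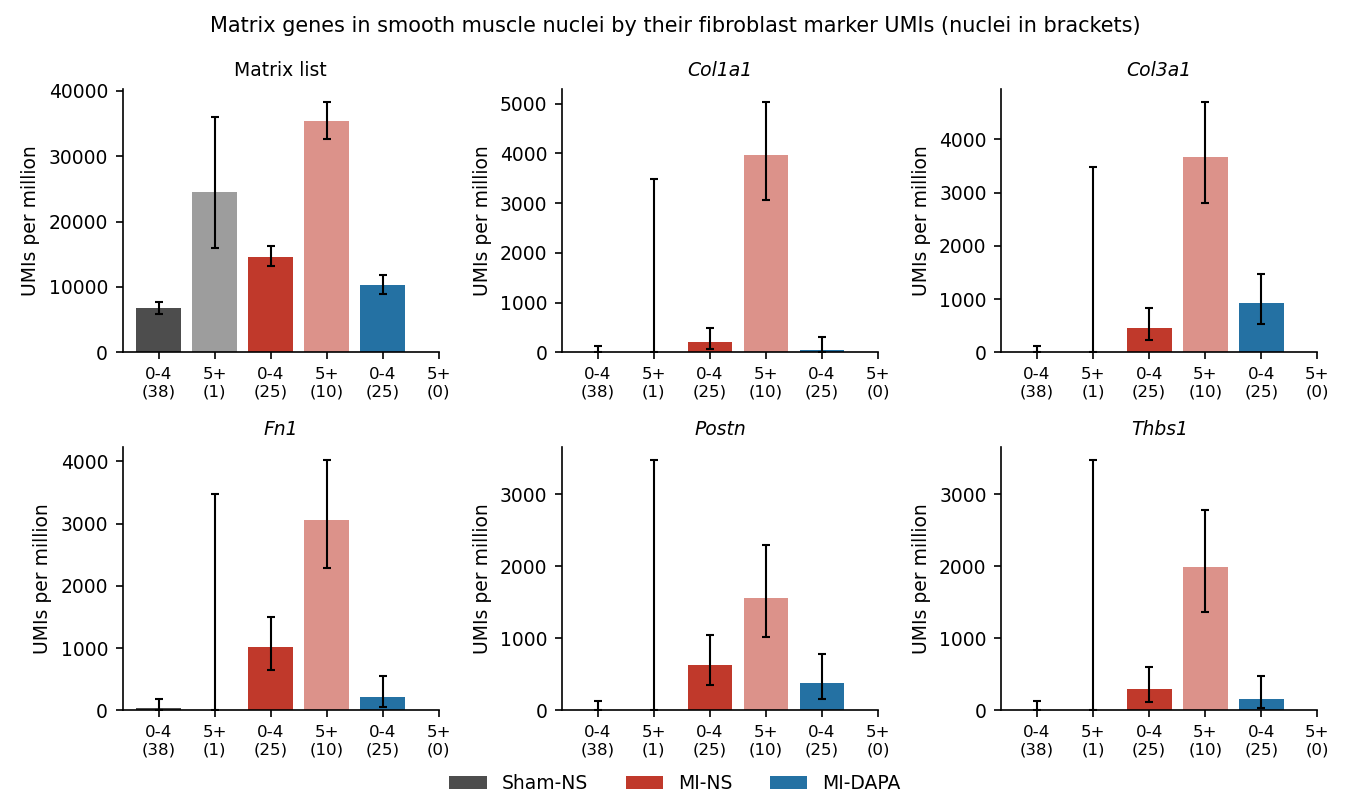
CPM (vertical axes) of the matrix list and of Col1a1, Col3a1, Fn1, Postn and Thbs1 in smooth muscle nuclei with 0 to 4 and with 5 or more fibroblast marker UMIs, by library, with the number of nuclei in brackets and 95% counting intervals. The 10 MI-NS nuclei with 5 or more stand highest for the matrix list at 35388, and the other 25 at 14630 still stand above the 38 Sham-NS nuclei at 6704; 1 Sham-NS nucleus and 0 MI-DAPA nuclei hold 5 or more.

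Other genes that differed most were of mixed roles. The lowest in MI-NS were Tef, a clock output factor (28 and 1 UMIs, -4.65, -10.56 to -2.61), and Pde4c, a cAMP phosphodiesterase (23 and 2, -3.63, -7.05 to -1.91). Both were lower in pericyte, fibroblast and endothelial nuclei too, Tef at -3.13, -2.68 and -2.38 and Pde4c at -1.80, -2.08 and -1.33. Next came Lifr, a cytokine receptor (20 and 2, -3.44, -6.86 to -1.68), and Ralgapa2, an inhibitor of Ral GTPases (18 and 2, -3.29, -6.72 to -1.51). Kcnt1 (23 and 3, -3.15, -5.72 to -1.61) and the noncoding Tbx3os1 (22 and 3, -3.08, -5.66 to -1.54) followed. All 3 measurable clock genes were lower, with Per3 at -2.72 (-5.32 to -1.11) and Per2 at -2.36 (-4.52 to -0.87), and they were lower in pericytes as well, at -3.87 and -5.49. Pfkp, a glycolytic enzyme, was higher with 4 and 27 UMIs (2.21, 0.83 to 4.33), and Ifi27, an interferon-induced gene, with 4 and 20 (1.79, 0.34 to 3.93). Vegfa (0.34), Jag1 (-0.40) and Mcam (0.66) had intervals that spanned 0. Pericyte genes as a list had 2 of 5 measurable genes higher and 3 lower (median -0.22). Lists of glucocorticoid targets, immediate early genes and the cell cycle had no measurable gene. The gene of the drug's target, Slc5a2, had 1 UMI in Sham-NS and 0 in both infarct libraries.

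The library treated with dapagliflozin was compared with MI-NS, which is also the infarct side of the first comparison, so the pair shares its MI-NS nuclei. Among 401 measurable genes 54 were at least 2-fold higher in MI-DAPA (13.5%) and 44 at least 2-fold lower (11%), with a median log2 ratio of 0.17. At any size of difference 242 of the 401 were higher and 159 lower, so most genes of a list could be higher without setting it apart. This balance depended on the scaling. With totals corrected by edgeR's TMM factors the median was -0.23, and the share of higher genes among those past 2-fold went from 55.1% (54 higher, 44 lower) to 27.7% (28 higher, 73 lower). Ratios are therefore best read against the 0.17 of all genes.

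Matrix genes were lower in MI-DAPA. Of 18 measurable, 17 were lower, 10 past 2-fold. The list had a median log2 ratio of -1.14 and a summed level of 10322 CPM against 23190 in MI-NS. Col1a1 had 1 UMI against 71 (-4.45, -10.35 to -2.50) and Col1a2 2 against 107 (-4.30, -7.68 to -2.73). Col5a2, another fibrillar chain, had 6 against 49 (-1.80, -3.42 to -0.68). Col3a1 had 17 against 72 (-0.93, -1.81 to -0.18), and Eln 28 against 80 (-0.37, -1.07 to 0.25), so elastin differed little. Fn1 had 4 UMIs against 75 (-2.94), Bgn 2 against 29 (-2.44, -5.85 to -0.75), Thbs1 3 against 40 (-2.41, -4.95 to -0.96) and Ccn2 4 against 46 (-2.24). Pmepa1, a TGF-beta target, had 1 UMI against 29 (-3.17, -9.08 to -1.14). The list of modulated smooth muscle had 6 of 8 measurable genes lower, all 6 at least 2-fold, and a median of -1.67.

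The 9 fibroblast markers, which share genes with the matrix list, were lowest in MI-DAPA. Without the MI-NS nuclei of 5 or more fibroblast marker UMIs, the matrix list stood at 10322 CPM (8910 to 11894) in MI-DAPA against 14630, with a median log2 ratio of -0.79. Col1a1 then had a log2 ratio of -1.52 (-7.53 to 1.20), Thbs1 -0.74 (-3.45 to 1.27), and both Col1a2 and Bgn -2.36 (-5.81 to -0.55). Fn1 was at -2.09, Col5a2 at -0.90 (-2.62 to 0.48) and Col3a1, on the other side of 0, at 0.96 (-0.19 to 2.23). In fibroblast nuclei the same comparison gave -0.81 for Col1a2, and -0.97 for Col1a1, which is among the genes that chose those nuclei. Col1a2 and Col1a1 stood at -1.42 and -1.85 in pericytes and at -1.81 and -2.01 in endothelial nuclei. Fn1, Thbs1 and Ccn2 were lower in each of these classes as well, at -2.14, -2.85 and -2.21 in endothelial nuclei. Pmepa1 was at -0.84 in pericytes, -0.86 in endothelial nuclei and 0.22 in fibroblast nuclei.

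Calcium and relaxation genes were higher in MI-DAPA than in MI-NS. All 7 measurable calcium genes were higher, 3 at least 2-fold, with a median log2 ratio of 0.91 and a summed ratio of 1.08 (0.77 to 1.39). The sum, but not the median, again includes the cardiomyocyte markers Ryr2 and Pln, and the median again includes Atp2a2 and Cacna1c. Atp2b4 had 19 UMIs in 14 of 25 MI-DAPA nuclei against 5 in 3 of 35, a log2 ratio of 2.95 (1.58 to 4.83), the highest of all eligible genes. It stood at -0.02 in pericytes, 0.50 in endothelial nuclei, 0.99 in fibroblast nuclei and 0.60 in all other nuclei. After thinning, Atp2b4 was detected in 28.2%, 5.71% and 44% of smooth muscle nuclei (35.9%, 8.57% and 56% unthinned), and in 9.93%, 14.2% and 11.6% of endothelial nuclei. Ano1 had 24 UMIs against 11 (2.22, 1.17 to 3.43) and Itpr1, the calcium release channel of the store, 17 against 16 (1.21, 0.14 to 2.29). Cacna1c was at 0.91 (-0.34 to 2.12). Without the MI-NS nuclei of 5 or more fibroblast marker UMIs Atp2b4 stood at 2.47, Ano1 at 1.58 and Itpr1 at 0.84 (-0.29 to 2.06).

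All 4 measurable relaxation genes were higher, 3 at least 2-fold, with a median log2 ratio of 1.61 and a summed ratio of 1.16 (0.78 to 1.55). Gucy1a1 had 24 UMIs in 12 nuclei against 9 UMIs in 5 (2.49, 1.38 to 3.83), with 0.31 in pericytes, and 3 MI-NS UMIs and a log2 ratio of 3.17 (1.64 to 5.73) without those nuclei. Mrvi1 was at 1.78 (0.57 to 3.10), with 1.10 in pericytes, and Adcy6 at 1.44 (0.62 to 2.28), with 0.66. Gucy1b1, the partner subunit, was at 0.42 (-0.99 to 1.67). Cardiomyocyte marker and mitochondrial RNA were also higher in MI-DAPA, the latter with 9 of 9 measurable genes and a median of 1.65, and their part in these lists was not tested. With TMM factors the medians were 0.52 for the calcium and 1.21 for the relaxation list.

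The contractile list over all nuclei again differed little between the libraries. Of 22 measurable genes 15 were higher and 7 lower, 2 at least 2-fold each way, and the median of 0.09 turned to -0.30 with TMM factors. The summed ratio was 0.12 (-0.01 to 0.25). Without the MI-NS nuclei of 5 or more fibroblast marker UMIs, the sum was lower in MI-DAPA. It was 39665 CPM (36847 to 42641), against 44437 (41794 to 47203) in MI-NS, with overlapping intervals. Myl6 (-1.12, -2.07 to -0.34) and Actn1, alpha-actinin (-1.20, -2.47 to -0.21), were lower in MI-DAPA. In pericyte, fibroblast and endothelial nuclei Myl6 was lower as well (-0.83, -0.90 and -0.62), as was Actn1 (-0.66, -0.81 and -0.73). Itga7, a laminin-binding integrin chain (1.46, 0.41 to 2.55), and Dmd (1.11, 0.65 to 1.57) were higher. Itga7 came to 1.00 (-0.10 to 2.20) without the nuclei rich in fibroblast markers. Smtn was at -0.85 (-1.71 to -0.11).

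Among regulators and signalling genes Tbx2 had 20 UMIs against 14 (1.62, 0.58 to 2.74), with 0.02 in pericytes. Arhgef25, an exchange factor for small GTPases coupled to vasoconstrictor receptors, had 3 UMIs against 37 (-2.30, -4.84 to -0.84), and Plcb4 4 against 33 (-1.77, -3.88 to -0.43). In Sham-NS Arhgef25 had 35 UMIs, so MI-DAPA was the low library for this gene. Nipbl, a cohesin loader (2.41, 1.34 to 3.67), and Oga, which removes O-GlcNAc from proteins (1.68, 0.30 to 3.21), were among the 6 highest genes, and Pan2, a poly(A) nuclease subunit (-2.58, -8.50 to -0.47), was among the 6 lowest. Of the pericyte list 4 of 5 measurable genes were higher (median 0.66). Ifi27 was lower with 2 UMIs against 20 (-1.91, -5.34 to -0.16), and at -1.57 (-5.06 to 0.46) without those rich in fibroblast markers. Mef2c, Mef2a, Notch3, Pdgfrb, Cspg4, Vegfa and Pfkp were between -0.70 and 0.87 with intervals that spanned 0.

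**Figure D5:**
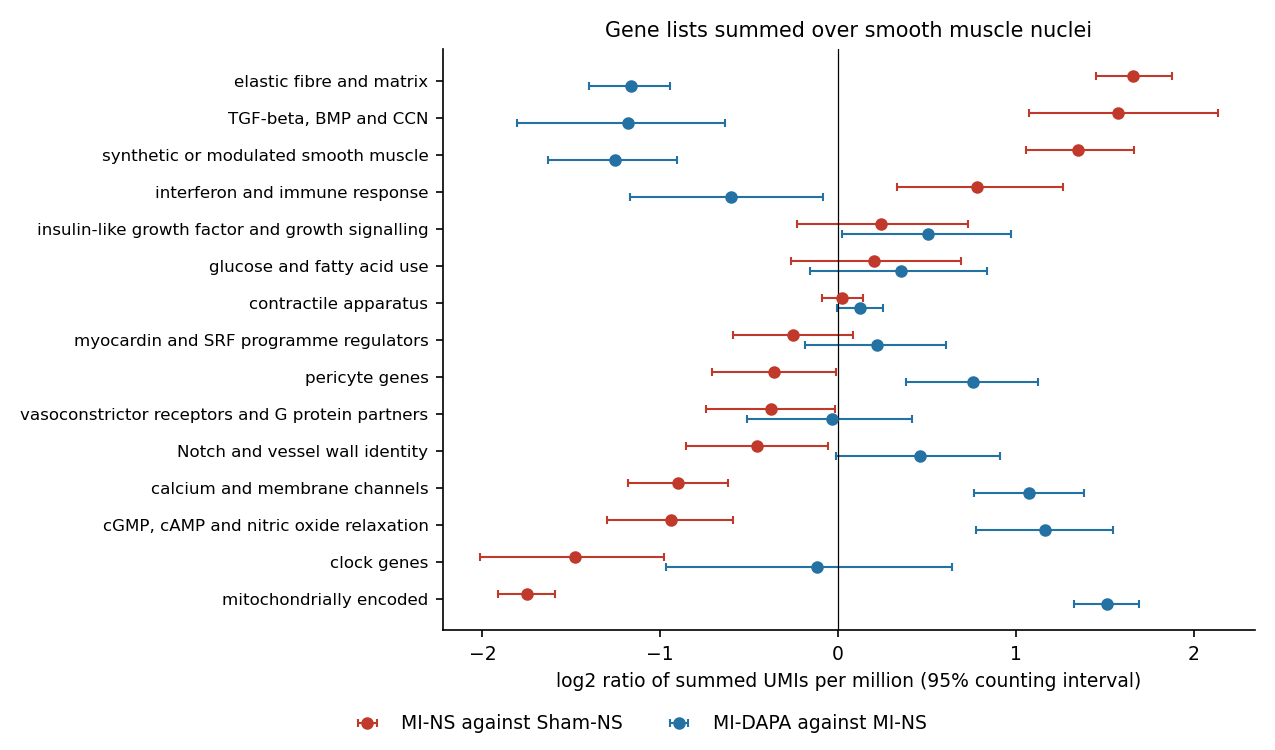
Log2 ratio of the summed CPM of each gene list in smooth muscle nuclei (horizontal axis), for MI-NS against Sham-NS and MI-DAPA against MI-NS, with 95% counting intervals as bars; the comparisons share MI-NS. The contractile list lies near 0 in both (0.03 and 0.12), the matrix list at 1.66 and -1.16, and the calcium list at -0.90 and 1.08. Nuclei rich in fibroblast markers are included, and the calcium list holds the cardiomyocyte markers Ryr2 and Pln.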

How the data were processed

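Nuclei from mouse heart were made into Chromium 3' libraries, per the labels' protocols. The authors deposited matrices of UMI counts, made with Cell Ranger 6.0.1 per the file headers. The submitters' processing notes name mm10 and Seurat, without its role. The reference release and use of intronic reads are not given in the sources used here. Every deposited barcode had at least 500 UMIs. Members, gene lists and the rules below were chosen with earlier results of these data known.

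UMIs were summed over the chosen nuclei of a library and divided by their total (Python 3.11.15, numpy 2.4.6, scipy 1.17.1, pandas 2.3.3). Ratios had exact conditional binomial intervals, levels exact Poisson and shares Clopper-Pearson intervals. edgeR 4.0.16 gave TMM factors for 1 alternative. Genes were measurable with 20 UMIs over both libraries. Pericyte nuclei needed 3 UMIs over Rgs5, Kcnj8, Abcc9, Vtn, Pdgfrb and Steap4, fibroblast nuclei 3 over Pdgfra, Dcn, Col1a1, Col3a1 and Lama2. The endothelial class, chosen after the data were seen, needed 3 UMIs of endothelial markers. Named genes were the 6 highest and 6 lowest eligible genes past 2-fold with an interval off 0, up to 3 eligible genes per list and the markers. Eligible genes had UMIs in 5 nuclei of the higher library and stood no lower there than in the remaining nuclei. Genes named beyond these (Mylk, Tpm1, Flna, Dmd, Eln, Lamb2 and the genes with few UMIs) were chosen after their values were seen. Some genes that this rule names are not reported here. The ratio computation was tested on simulated data.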

Additional observations from a re-analysis of the deposited data

How the results depend on the processing

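No paired analysis was possible because each group has 1 library, and no library could be left out. Alternatives were tried for 82 gene ratios, of which 1 changed sign: Cnn1 in MI-DAPA against MI-NS, a gene with 0 to 2 UMIs per library, at 0.90 under a stricter nucleus filter. Notch3 in MI-NS against Sham-NS went to -2.85 with a stricter member rule, and Ccn2 to 0.64 and Thbs1 in MI-DAPA against MI-NS to -0.73 without any UMI of the excluded genes. With a stricter member rule the shares were 0.277%, 0.326% and 0.298% in Sham-NS, MI-NS and MI-DAPA. With a stricter nucleus filter they were 0.318%, 0.568% and 0.192%, and the ratio of MI-DAPA to MI-NS was 0.339 (0.114 to 0.841). That filter's limit of 500 genes lay above the median of smooth muscle nuclei in Sham-NS and MI-DAPA but not in MI-NS. The part of depth in this ratio was not tested. Without any UMI of the excluded genes 35, 22 and 21 smooth muscle nuclei were left, among 8296, 7065 and 5372 nuclei. MI-NS then had the lowest share, at 0.311%. With nuclei thinned before the rule the MI-NS share was 0.326%. The number of genes past 2-fold moved most, since fewer nuclei leave fewer measurable genes. Genes higher in MI-NS than Sham-NS numbered 45 with the stricter member rule, 42 without UMIs of excluded genes, 47 without the deepest nuclei (top 10% by UMIs), 28 with nuclei thinned to 500 UMIs, and 20 or 218 with a minimum of 50 or 10 UMIs. Genes lower in MI-NS numbered 47 with the stricter nucleus filter, 52 thinned, and 23 or 229 with those minimums. Genes higher in MI-DAPA than MI-NS numbered 35 (member rule), 30 (nucleus filter), 26 (thinned), 28 (TMM factors), and 15 or 176. Genes lower in MI-DAPA numbered 28 (member rule), 21 (excluded genes), 10 (thinned), 73 (TMM factors), and 11 or 162. Without nuclei of 5 or more fibroblast marker UMIs, added after the data were seen, 41 genes were higher in MI-NS and 17 lower in MI-DAPA, and the median of the modulated smooth muscle list in MI-NS against Sham-NS was -0.084. The medians of the matrix, calcium and relaxation lists kept their sign under every alternative that gave a value. With 25 to 39 nuclei a library, genes under 20 UMIs could not be compared.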
